A study of Mus musculus with 30 samples.

Results

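The comparison described here set the livers of 12-month-old mice against those of 2-month-old mice over a whole day. Its members were 12 of the 30 liver RNA-seq libraries of the series, all of those of the time course that came from animals aged 2 or 12 months. The 2-month group and the 12-month group each had 6 libraries, 1 at each of ZT1, ZT5, ZT9, ZT13, ZT17 and ZT21, where ZT (zeitgeber time) counts hours from lights on. All animals of this comparison were wild-type male C57BL/6J mice, an inbred laboratory strain, on chow and a 12 h light and 12 h dark cycle. ZT1 to ZT9 thus fell in the light phase and ZT13 to ZT21 in the dark phase. Values from 6 time course libraries of 6-month-old mice are set beside it. So are those of 8 libraries of 2-month-old and 12-month-old mice, either wild-type or with Egr-1 deleted in hepatocytes by Alb-Cre. Each library held poly(A)-selected RNA of whole liver. Because the sources do not say how many animals one library stood for, p-values measured only the spread between these libraries. The question was which genes, and which liver functions, differed in mean daily level between the ages, whatever the hour. The time of day entered the test as a block, so that each 12-month library was in effect set against the 2-month library of the same ZT. A gene was called when edgeR's quasi-likelihood test gave a Benjamini-Hochberg adjusted p below 0.05.

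The liver makes most plasma proteins, stores and exports lipid, builds cholesterol and bile acids, disposes of nitrogen as urea and clears drugs and steroids with cytochrome P450 and conjugating enzymes. Many of these functions follow feeding and the clock, and in mice feeding falls mostly in the dark phase. Male mouse liver also carries a sex-specific programme, set by pulses of growth hormone that act through its receptor and STAT5b, which includes the major urinary proteins (MUPs) and several P450 enzymes. Liver cells also carry the interferon response, which guards against viruses, and the unfolded protein response, which serves the folding of secreted proteins.

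The 12 libraries held 13582327 to 16557378 counted reads each, and correlations of log2 CPM between libraries of 1 age were 0.973 to 0.986. CPM, a count relative to the size of its library, were computed for single genes on totals scaled with TMM factors. Such levels can be compared between libraries but not between genes of different length. Summed CPM of marker lists were computed on library totals without these factors, so sums and single genes differ in scale. Of 24709 gene symbols with a count, 14001 were abundant enough to be tested. Marker genes of hepatocytes summed to 91030.0 to 99840.0 CPM at 2 months and 100500.0 to 119300.0 CPM at 12 months, as liver should. Alb, the most abundant hepatocyte marker and a gene chosen for the text after its values were seen, ranged over 70073 to 83023 CPM at 2 months (median 77571) and 75132 to 111450.0 CPM at 12 months (median 79729) and was not called (log2 0.16 ± 0.09, adjusted p = 0.267). One library stood apart. The 12-month ZT9 library had 489.5 summed CPM of B and plasma cell markers where the other 12-month libraries had 64.9 to 106.7, and 4492 summed CPM of erythroid markers where the others had 1100.0 to 2212. Without it 1470 genes were called in place of 2033, inside the range of 1385 to 1685 found when any 1 library was left out. The weight of the 12-month ZT9 library is given below wherever it changed a count by more than 1.5 times. In these bulk samples fewer cells of a type and less RNA per cell cannot be told apart.

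Of the 14001 genes tested, 2033 were called (14.5%), with 1074 higher at 12 months (7.67%) and 959 lower (6.85%). With library totals in place of TMM factors the split was 1465 higher and 576 lower. Under the additional requirement of an absolute log2 fold change over 1.2, 312 genes remained (2.23%), of which 195 were higher and 117 lower. The methods of the study give 1.2 as a threshold of log fold change without naming the base, which was read here as log2. Most differences were modest. The median absolute log2 fold change of called genes was 0.54, and 434 genes passed 1, 126 passed 2 and 41 passed 3. The 6 differences between libraries of the same ZT all had the called sign in 1637 of the 2033 called genes. In 574 of the tested genes (4.1%) the 2 groups of 6 did not overlap at all, with 315 wholly above (2.25%) and 259 wholly below (1.85%) at 12 months, and 541 of these were among the called genes.

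**Figure D1:**
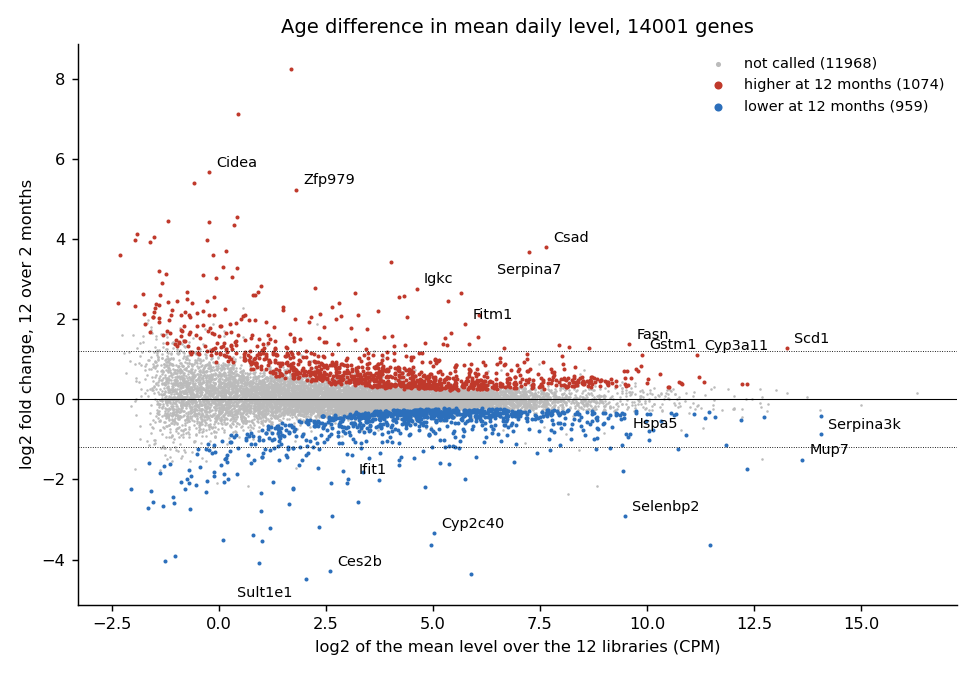
Each point is 1 of the 14001 genes tested, with the log2 of its mean level over the 12 libraries in CPM on the horizontal axis and its log2 fold change of 12 over 2 months on the vertical axis. Red points are the 1074 genes called higher and blue points the 959 called lower, grey points were not called, and the dotted lines mark a log2 fold change of 1.2 in either direction. Calls spread over the whole range of levels, with Csad and Zfp979 far above zero and Ces2b and Sult1e1 far below.

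The smallest p-value belonged to Csad, which encodes cysteine sulfinic acid decarboxylase, an enzyme of taurine synthesis, and lies at chr15:102176999-102204724 (GRCm38). Its lowest, median and highest levels were 17.8, 26.0 and 34.6 CPM at 2 months and 254, 388 and 478 CPM at 12 months, with the groups far apart at every ZT (log2 fold change 3.80 ± 0.14 (SE), adjusted p = 2.73e-08). At 6 months the gene was at a median of 68.6 CPM, between the other ages. Plekhb1, which encodes a membrane-associated protein with a pleckstrin homology domain, rose from a median of 12.2 to 72.6 CPM (log2 2.44 ± 0.11, adjusted p = 9.36e-08). Nat8, an N-acetyltransferase of the endoplasmic reticulum, rose from a median of 19.5 to 55.2 CPM (log2 1.54 ± 0.07, adjusted p = 1.22e-07). Serpine2, an inhibitor of serine proteases, rose from a median of 4.40 to 20.1 CPM (log2 2.19 ± 0.11, adjusted p = 1.57e-07), and Mgst3, a microsomal glutathione transferase, rose from a median of 8.33 to 30.9 CPM (log2 2.06 ± 0.11, adjusted p = 3.11e-07). Clstn3, which encodes calsyntenin 3, rose from a median of 4.37 to 30.7 CPM (log2 2.54 ± 0.19, adjusted p = 4.99e-06). Every 12-month library lay above every 2-month library in each of these 6 genes, as in 2.25% of all genes tested. They were picked by a rule on size, p and sign at each ZT, which favours such separation. Among genes that rose, Serpina7, which encodes thyroxine-binding globulin, the plasma carrier of thyroid hormone, spread over 7.12, 21.5 and 35.3 CPM at 2 months (lowest, median and highest) and 119, 241 and 522 CPM at 12 months (log2 3.66 ± 0.30, adjusted p = 9.08e-06).

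On the lower side the smallest p-value belonged to Ces2b, a carboxylesterase gene at chr8:104831572-104840093 whose product cleaves esters. Its lowest, median and highest levels were 5.92, 10.1 and 20.3 CPM at 2 months and 0.131, 0.609 and 0.896 CPM at 12 months (log2 fold change -4.28 ± 0.20 (SE), adjusted p = 9.36e-08). Sult1e1, the estrogen sulfotransferase, ranged over 2.71 to 19.1 CPM at 2 months (median 4.08) and 0.0565 to 0.567 CPM at 12 months (median 0.314), a log2 fold change of -4.49 ± 0.25 (adjusted p = 3.9e-07). Selenbp2, a selenium-binding protein of the male liver, was far more abundant and fell from a median of 1188 to 152 CPM (log2 -2.92 ± 0.17, adjusted p = 6.04e-07). Cyp2c40 and Cyp2c69, P450 enzymes of the Cyp2c cluster that resemble one another closely enough for reads to be shared, fell from a median of 57.4 to 5.39 CPM (log2 -3.34 ± 0.21, adjusted p = 9.87e-07) and from a median of 10.7 to 1.52 CPM (log2 -2.92 ± 0.18, adjusted p = 8.57e-07). Lifr, which encodes the receptor for leukaemia inhibitory factor, fell from a median of 305 to 124 CPM (log2 -1.27 ± 0.09, adjusted p = 2.64e-06). Chic1 fell from a median of 9.47 to 0.946 CPM (log2 -3.19 ± 0.18, adjusted p = 5.26e-07), Tceal8 from a median of 34.9 to 12.0 CPM (log2 -1.47 ± 0.11, adjusted p = 4.58e-06) and Trim14, a tripartite motif protein, from a median of 18.5 to 7.02 CPM (log2 -1.34 ± 0.10, adjusted p = 4.95e-06). Every 12-month library lay below every 2-month library in each of these 9 genes, as in 1.85% of all genes tested. These 9 were picked by the same rule, which favours such separation.

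Among the most abundant transcripts that changed, Scd1, the desaturase that makes monounsaturated fatty acids, rose from a median of 5653 to 15696 CPM (log2 1.27 ± 0.25, adjusted p = 0.0054), although its groups overlapped. Cyp3a11, a main drug-metabolising P450, rose from a median of 1404 to 3302 CPM without overlap (log2 1.09 ± 0.10, adjusted p = 2.21e-05), and so did Ttr, the plasma carrier of retinol-binding protein and thyroxine (from a median of 4207 to 5389 CPM, log2 0.39 ± 0.09, adjusted p = 0.012). The abundant transcripts that fell included Serpina3k, a protease inhibitor of plasma (from a median of 21099 to 12391 CPM, log2 -0.87 ± 0.09, adjusted p = 6.09e-05), Mup7 (from a median of 17660.1 to 7411 CPM, log2 -1.51 ± 0.16, adjusted p = 6.09e-05), Ahsg, which encodes fetuin-A (from a median of 5449.9 to 3877 CPM, log2 -0.51 ± 0.10, adjusted p = 0.00455) and Cps1, the entry enzyme of the urea cycle (from a median of 3562 to 2654 CPM, log2 -0.44 ± 0.09, adjusted p = 0.00786). These 4 did not overlap between the ages, as in 1.85% of all genes tested.

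**Figure D2:**
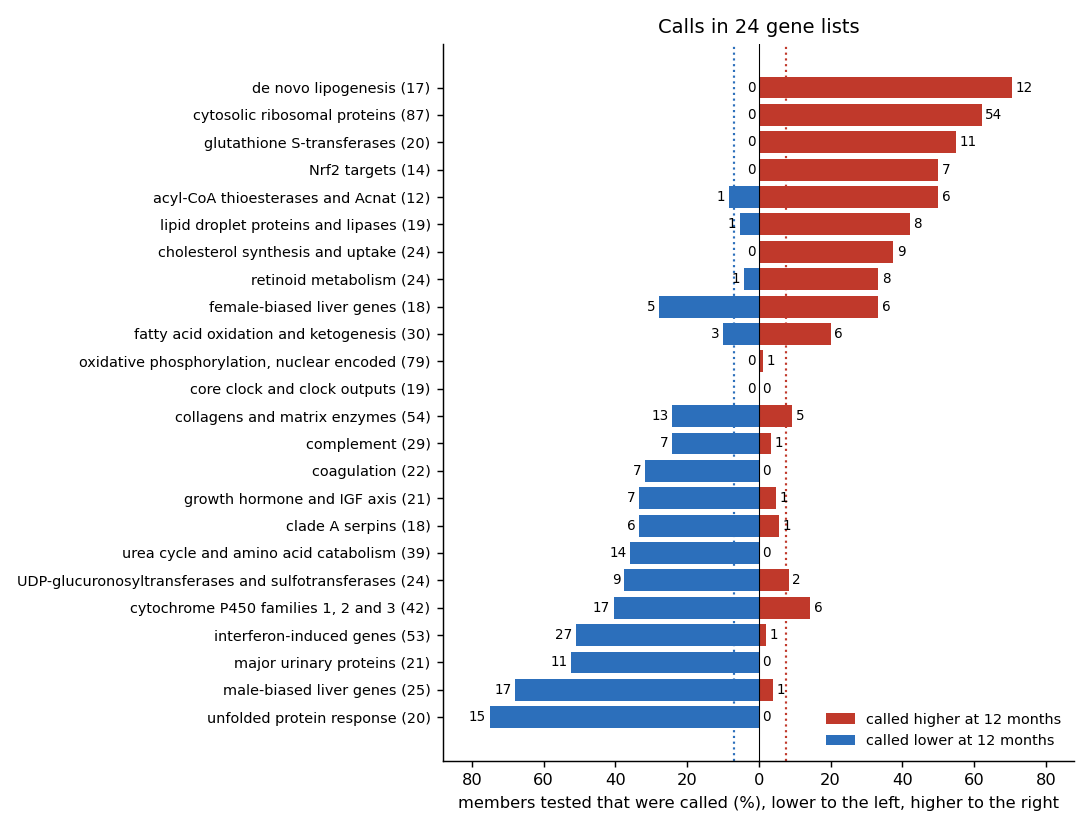
Each bar gives the percentage of a gene list's tested members that was called at 12 against 2 months, lower to the left in blue and higher to the right in red, with the number of members at the bar's end and the number tested in brackets. The dotted lines mark the percentages over all genes tested, 7.67 for higher and 6.85 for lower. Of the lists drawn, which leave out the immunoglobulin genes, lipogenesis and ribosomal protein genes extend furthest to the right, and unfolded protein response and male-biased genes furthest to the left.

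Genes of fatty acid synthesis were higher at 12 months. Of 17 de novo lipogenesis genes tested, 12 were called higher and 0 lower, against 7.67% and 6.85% of all genes, and the list's median log2 fold change was 0.65 where the median of all genes was near 0. Fasn, the fatty acid synthase, ranged over 266 to 545 CPM at 2 months (median 414) and 348 to 2233 CPM at 12 months (median 1064), a log2 fold change of 1.37 ± 0.27 (adjusted p = 0.00557). Acly, which makes cytosolic acetyl-CoA from citrate, rose from a median of 248 to 561 CPM (log2 1.29 ± 0.23, adjusted p = 0.00309), and Me1, a source of the NADPH used in synthesis, rose from a median of 165 to 422 CPM (log2 1.30 ± 0.22, adjusted p = 0.00221). Levels of all 3 overlapped between the ages. Srebf1, the transcription factor gene best known for driving this pathway and chosen after its values were seen, was at a median of 312 CPM at 2 months and 373 CPM at 12 months and did not pass the test (log2 0.42 ± 0.16, adjusted p = 0.0875). Within single phases 9 of the lipogenesis genes were called in the dark and 0 in the light, yet the list's median difference had the same sign in both, 0.56 in the light phase and 0.84 in the dark phase, and 0 of the 17 had an unadjusted p below 0.05 for the difference between phases. Leaving out the 12-month ZT13 library lowered the count to 7.

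Genes for proteins that coat or remodel lipid droplets were more often higher than lower. Of 19 genes for lipid droplet proteins and lipases, 8 were called higher and 1 lower. Fitm1, which partitions triglyceride into droplets, had levels of 16.1, 23.9 and 25.9 CPM at 2 months (lowest, median and highest) and 67.2, 80.6 and 111 CPM at 12 months, with no overlap (log2 1.88 ± 0.09, adjusted p = 1.22e-07). Cidec, a droplet fusion protein, rose from a median of 1.80 to 8.87 CPM (log2 2.30 ± 0.22, adjusted p = 3.32e-05), likewise without overlap. Cidea, its relative and the gene at the centre of the study, had 2 reads in all 6 libraries at 2 months and 154 at 12 months, a depth-scaled ratio of 77.7 with a 95% counting interval of 21.1 to 647 (adjusted p = 5.26e-05). Its level at 12 months still ranged only from 0.569 to 4.54 CPM, highest at ZT21. Hsd17b13, a droplet-bound dehydrogenase of hepatocytes, rose from a median of 221 to 317 CPM (log2 0.49 ± 0.08, adjusted p = 0.00234). Plin4, a droplet coat protein named after its values were seen, rose from a median of 0.904 to 2.13 CPM (log2 1.18 ± 0.27, adjusted p = 0.0114), whereas Plin2, the main droplet coat of hepatocytes and named likewise, was at 286 CPM at 2 months and 274 CPM at 12 months and did not pass the test (log2 0.05 ± 0.12, adjusted p = 0.833). The one member that fell was Abhd5, the activator of adipose triglyceride lipase (from a median of 37.3 to 26.3 CPM, log2 -0.39 ± 0.09, adjusted p = 0.017), a call lost without the ZT1 library of either age, while 2 members fell without that of ZT21. Some droplet genes are also adipocyte genes, and adipocyte markers summed to 0 to 2.33 CPM at 2 months and 1.24 to 5.46 CPM at 12 months, with Lep and Plin1 at 3 counts or fewer over the 12 libraries. Of the 5 markers only Cfd was abundant enough to be tested, and it rose (log2 2.61 ± 0.50, adjusted p = 0.00484).

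Cholesterol synthesis and uptake genes leaned the same way. All 24 tested had a positive fold change, 9 were called higher and 0 lower, and the median log2 fold change was 0.57. Pmvk, phosphomevalonate kinase, ranged over 13.3 to 57.3 CPM at 2 months (median 28.7) and 52.8 to 121 CPM at 12 months (median 77.1), a log2 fold change of 1.38 ± 0.21 (adjusted p = 0.00105). Fdps, which makes farnesyl diphosphate, rose from a median of 2.73 to 7.90 CPM (log2 1.42 ± 0.32, adjusted p = 0.012). The number called depended on single times of day, being 5 without the ZT5 library of either age, 4 without that of ZT9 or ZT13 and 14 without that of ZT17.

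Other genes of lipid use moved in both directions. Among 30 genes of fatty acid oxidation and ketogenesis, 6 were called higher and 3 lower, or 1 lower without the 2-month ZT1 library. Cyp4a14, a fatty acid hydroxylase, rose from a median of 24.4 to 95.6 CPM (log2 2.11 ± 0.26, adjusted p = 0.000229), and Acaa1b, a peroxisomal thiolase, rose from a median of 683 to 1062 CPM (log2 0.82 ± 0.12, adjusted p = 0.0007). Pdk4, the kinase that shuts pyruvate out of oxidation, rose from a median of 6.37 to 11.6 CPM (log2 0.97 ± 0.20, adjusted p = 0.00653), whereas Cyp4a32 fell from a median of 12.4 to 7.58 CPM (log2 -0.69 ± 0.14, adjusted p = 0.00549). Of 12 acyl-CoA thioesterases and related acyltransferases, 6 were higher and 1 lower, among them Acnat2 (from a median of 9.95 to 26.0 CPM, log2 1.33 ± 0.14, adjusted p = 5.89e-05) and Acot1 (from a median of 16.2 to 31.7 CPM, log2 0.74 ± 0.12, adjusted p = 0.00197). Pparg, the nuclear receptor of fat storage, rose from a median of 6.05 to 12.1 CPM without overlap (log2 1.25 ± 0.12, adjusted p = 3.1e-05). Gpam, which begins triglyceride synthesis, rose from a median of 87.7 to 206 CPM (log2 1.14 ± 0.22, adjusted p = 0.00471), and the phospholipid transfer protein gene Pltp rose from a median of 19.6 to 62.7 CPM (log2 1.66 ± 0.19, adjusted p = 0.00011). Slc27a2, a fatty acid transporter and acyl-CoA synthetase, fell from a median of 778 to 557 CPM (log2 -0.50 ± 0.11, adjusted p = 0.011), and Lpl, lipoprotein lipase, fell from a median of 32.0 to 17.3 CPM (log2 -0.61 ± 0.10, adjusted p = 0.00136). Fgf21, the secreted hormone of the fasting liver, was low at both ages, 0 to 0.342 CPM at 2 months and 0.448 to 1.70 CPM at 12 months (log2 2.51 ± 0.52, adjusted p = 0.00759).

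Glutathione S-transferases, which conjugate glutathione to reactive compounds, were higher at 12 months. Of 20 tested, 11 were called higher and 0 lower, and the median log2 fold change was 0.49. Gstm1, an abundant member, had levels of 491, 602 and 719 CPM at 2 months (lowest, median and highest) and 987, 1308 and 1597 CPM at 12 months (log2 1.11 ± 0.13, adjusted p = 0.000143). Gsta2 rose from a median of 22.0 to 53.1 CPM (log2 1.37 ± 0.14, adjusted p = 5.41e-05), Gstt3 from a median of 22.1 to 46.0 CPM (log2 0.98 ± 0.12, adjusted p = 0.000191) and Gsta1 from a median of 0.998 to 4.37 CPM (log2 2.22 ± 0.25, adjusted p = 0.000103). The groups did not overlap in any of these 4 genes, as in 2.25% of all genes tested that were wholly above. Gsta1 and Gsta2 are near-identical copies, and how their shared reads were divided is uncertain. Of 14 targets of Nrf2, the transcription factor of the oxidative stress response, 7 were higher and 0 lower, but 4 of those 7 are also in the transferase list. Nqo1, a quinone reductase named after its values were seen, rose from a median of 5.18 to 8.67 CPM (log2 0.79 ± 0.12, adjusted p = 0.00107).

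The male programme of the liver was lower at 12 months. Of 25 male-biased genes tested, 17 were called lower and 1 higher, with a median log2 fold change of -0.73. Ces2b and Selenbp2, described above, led this list. Its members Mup7, Mup12, Mup21, C6, C8a, C8b, Ugt2b1, Ugt2b38 and Cyp2d9 are counted again as lower in other lists below. Cyp7b1, the oxysterol hydroxylase of the alternative bile acid pathway, ranged over 282 to 448 CPM at 2 months (median 336) and 141 to 166 CPM at 12 months (median 154), a log2 fold change of -1.15 ± 0.10 (adjusted p = 1.84e-05), and Ugt2b1, a glucuronosyltransferase of steroids, fell from a median of 2435 to 963 CPM (log2 -1.25 ± 0.10, adjusted p = 7.26e-06). Neither gene overlapped between the ages. Hsd3b5, a steroid dehydrogenase of male liver named after its values were seen, fell from a median of 505 to 288 CPM (log2 -0.88 ± 0.12, adjusted p = 0.000462). The female-biased list was split. Of 18 such genes abundant enough to be tested, 6 were higher and 5 lower, with a median log2 fold change of 0.49 and 12 of the 18 positive, and the 5 became 3 without the ZT13, ZT17 or ZT21 library of either age. Abcd2, a peroxisomal fatty acid transporter, rose from a median of 8.07 to 23 CPM (log2 1.57 ± 0.15, adjusted p = 2.43e-05), while Cyp2c40 and Cyp2c69, also on that list, were among the genes that fell most. Slc22a29, an organic anion transporter gene of the same list, had 2 reads in the 6 libraries at 2 months and 114 at 12 months, a ratio of 57.5 with a 95% counting interval of 15.6 to 480.0. Without the 12-month ZT9 library, which held 41 of the reads, the ratio was 43.4.

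Some genes of the growth hormone axis, which lies above this programme, were lower too. Of 21 tested, 7 were called lower and 1 higher, and the 7 fell to 3 without the ZT1 library of either age and to 4 without that of ZT9, ZT13 or ZT21. Igfals, which encodes the acid-labile subunit that holds IGF-1 in plasma, ranged over 73.5 to 94.8 CPM at 2 months (median 87.1) and 40.1 to 71.4 CPM at 12 months (median 56.7), a log2 fold change of -0.65 ± 0.12 (adjusted p = 0.00435). Igf1 itself, named after its values were seen, fell from a median of 775 to 594 CPM (log2 -0.34 ± 0.09, adjusted p = 0.0228), a call lost without the ZT1, ZT5 or ZT21 library of either age. Egfr, the epidermal growth factor receptor, fell from a median of 313 to 204 CPM (log2 -0.74 ± 0.13, adjusted p = 0.00255). Ghr, the receptor for growth hormone and also named afterwards, was at medians of 580.3 and 504 CPM and did not pass the test (log2 -0.19 ± 0.08, adjusted p = 0.135).

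Major urinary proteins, the pheromone carriers that make up much of male liver secretion, had the lowest median of all lists with 3 or more tested members. Of 21 tested, 0 were called higher and 11 lower, with a median log2 fold change of -1.26. Mup7, an abundant member, had levels of 16015, 17660.1 and 24667 CPM at 2 months (lowest, median and highest) and 3802, 7411 and 8199 CPM at 12 months (log2 -1.51 ± 0.16, adjusted p = 6.09e-05). Mup3, more abundant than Mup7 at 12 months, was called lower too, but its groups overlapped. It ranged over 16123 to 24469 CPM at 2 months and 10984 to 19547 CPM at 12 months. Mup11 fell from a median of 882 to 451 CPM (log2 -1.15 ± 0.17, adjusted p = 0.000945) and Mup14 from a median of 893 to 300.4 CPM (log2 -1.78 ± 0.25, adjusted p = 0.00066). Mup15 swung most within an age, with 192 to 9186 CPM at 2 months and 70.3 to 1031 CPM at 12 months, so that its groups overlapped (log2 -3.65 ± 0.43, adjusted p = 0.000182). MUP genes are near-identical copies in tandem, and reads may have been divided between them or dropped by the counting, so the values of single members are uncertain.

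P450 enzymes of families 1, 2 and 3 were split, with 17 of 42 called lower and 6 higher. Among the 17, Cyp2d9 is also on the male-biased list, and Cyp2a4, Cyp2b9, Cyp2c40 and Cyp2c69 are on the female-biased list. The 6 became 3 without the ZT5 or ZT13 library of either age. Cyp2a12 ranged over 489 to 634 CPM at 2 months (median 575) and 314 to 372 CPM at 12 months (median 339), a log2 fold change of -0.73 ± 0.08 (adjusted p = 0.000103), and Cyp1a2, which oxidises aromatic amines and caffeine and was named after its values were seen, fell from a median of 600.1 to 402 CPM (log2 -0.63 ± 0.09, adjusted p = 0.000679). Against these stood Cyp3a11, given above. Of 24 UDP-glucuronosyltransferases and sulfotransferases, 9 were lower and 2 higher (1 without the ZT1, ZT9 or ZT17 library of either age), with Sult5a1 (from a median of 12.2 to 2.97 CPM, log2 -2.09 ± 0.13, adjusted p = 1.16e-06) among those that fell. The transporter Slc22a7, which moves organic anions into hepatocytes, fell from a median of 55.0 to 17.7 CPM (log2 -1.58 ± 0.13, adjusted p = 7.26e-06).

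**Figure D3:**
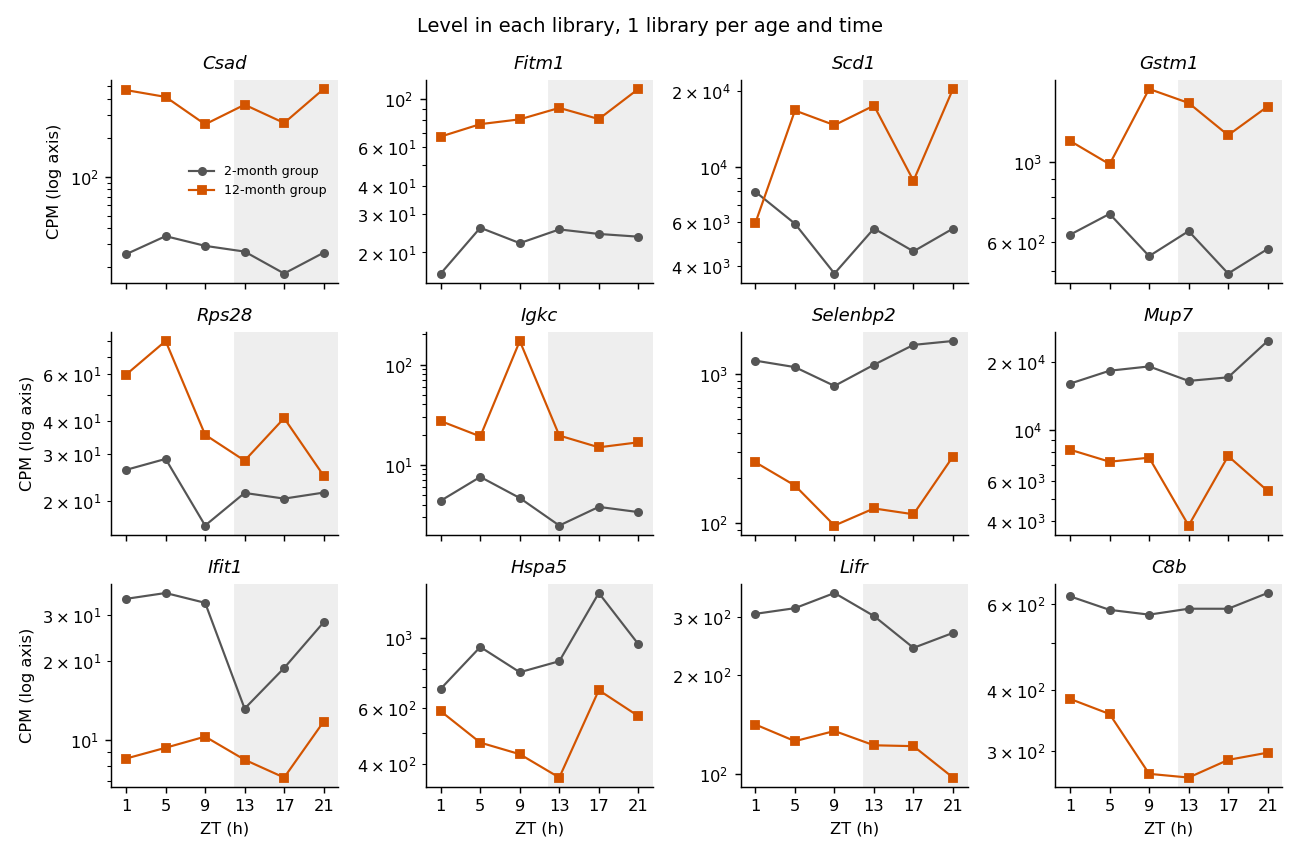
Each panel plots 1 gene's level in CPM on a log axis against ZT in hours, with grey circles for the 2-month group and orange squares for the 12-month group, 1 library per point, and the dark phase shaded. Csad, Fitm1, Gstm1 and Igkc lie above the 2-month values at every time, Selenbp2, Mup7, Ifit1, Hspa5, Lifr and C8b lie below, and Scd1 and Rps28 overlap between the ages.

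Interferon-induced genes were lower at 12 months. Interferons bind surface receptors and act through transcription factors that recognise a short DNA element in promoters, the interferon-stimulated response element (ISRE). The promoter stretches of Ifit1 and Isg15 are shown because both genes are standard readouts of this pathway and both fell. They were read from RefSeq promoter windows of GRCm38.p6, 5′ to 3′ on the gene's strand, with matches to GAAANNGAAA on either strand in capitals.
Ifit1, chr19:34640759-34640828, plus strand: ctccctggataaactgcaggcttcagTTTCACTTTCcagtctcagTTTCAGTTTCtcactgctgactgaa
Isg15, chr4:156200859-156200948, minus strand: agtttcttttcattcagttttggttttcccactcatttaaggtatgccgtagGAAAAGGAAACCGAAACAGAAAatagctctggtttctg
The Ifit1 stretch holds 2 matches, which begin 104 and 85 bases before the start site, and the Isg15 stretch holds 3 that overlap one another and begin 78, 72 and 66 bases before it. Among genes with a single promoter window of 250 bases before and 50 after the start, 20 of 33 interferon-induced genes tested held a match (60.6%), as did 11 of the 16 called (68.8%), against 818 of all 22862 windows (3.58%). A match is a description of the letters and was not tested as a site.

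Of the 53 interferon-induced genes tested, 27 were called lower and 1 higher, and the median log2 fold change was -0.47. Ifit1, which binds foreign RNA, had levels of 13.2, 30.8 and 36.4 CPM at 2 months (lowest, median and highest) and 7.20, 8.93 and 11.8 CPM at 12 months (log2 -1.50 ± 0.15, adjusted p = 5.26e-05). Usp18, the protease that removes ISG15 from proteins, fell from a median of 12.3 to 2.71 CPM (log2 -1.80 ± 0.17, adjusted p = 2.86e-05). In these genes every 12-month library was below every 2-month library. Ifih1, which encodes the RNA sensor MDA5, fell from a median of 40.2 to 24.2 CPM (log2 -0.74 ± 0.09, adjusted p = 0.000231), and Irgm1, an interferon-induced GTPase, fell from a median of 75.8 to 48.1 CPM (log2 -0.66 ± 0.08, adjusted p = 0.000208). Isg15, the ubiquitin-like modifier, and Irf7, an amplifier of interferon transcription, both named after their values were seen, fell from a median of 16.5 to 9.71 CPM (log2 -0.69 ± 0.12, adjusted p = 0.00249) and from a median of 50.8 to 34.5 CPM (log2 -0.57 ± 0.08, adjusted p = 0.000455). The 1 member called higher was Ifi27 (from a median of 84.4 to 109 CPM, log2 0.37 ± 0.08, adjusted p = 0.00775), joined by 1 more without the ZT1 library of either age. The list's median was -0.58 in the light phase and -0.33 in the dark phase, and of 14 members with an unadjusted p below 0.05 for the difference between phases, 13 were less reduced in the dark, though none passed adjustment. Of 19 antigen presentation genes 0 were called lower and 2 higher (10.5%), H2-Q6 (log2 0.59 ± 0.11, adjusted p = 0.00326) and H2-Q7 (log2 0.54 ± 0.10, adjusted p = 0.00373). Without the ZT9 library of either age 4 were higher. Over all genes 6.85% were lower and 7.67% higher, so these counts were near the overall shares.

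Chaperones of the endoplasmic reticulum were lower at 12 months. The unfolded protein response raises these genes when secretory proteins misfold, in part through ATF6 and XBP1 acting on the endoplasmic reticulum stress element (ERSE). The stretches of Hspa5, Calr and Creld2 are shown because each fell and each holds a full match to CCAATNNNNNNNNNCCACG on either strand, in capitals. Creld2 was chosen after its values were seen.
Hspa5, chr2:34772020-34772049, plus strand: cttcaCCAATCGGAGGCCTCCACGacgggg
Calr, chr8:84847032-84847121, minus strand: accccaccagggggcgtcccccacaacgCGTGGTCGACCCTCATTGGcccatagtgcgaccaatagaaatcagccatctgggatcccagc
Creld2, chr15:88819486-88819555, plus strand: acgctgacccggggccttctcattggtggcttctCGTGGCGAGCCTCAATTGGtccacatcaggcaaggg
The match begins 65 bases before the start site in Hspa5, 162 in Calr and 126 in Creld2. Of 17 genes of this response that were tested and have a single promoter window, 6 held a match (35.3%), against 30 of 22862 windows (0.131%), and all 6 were among the 13 of them that were called.

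Of 20 unfolded protein response genes tested, 15 were called lower and 0 higher, with a median log2 fold change of -0.52. Hspa5, which encodes the chaperone BiP, had levels of 692, 893 and 1393 CPM at 2 months (lowest, median and highest) and 361, 517 and 685 CPM at 12 months, with no overlap (log2 -0.85 ± 0.12, adjusted p = 0.000539). Manf, a secreted stress protein, fell from a median of 130.3 to 67.0 CPM (log2 -0.89 ± 0.14, adjusted p = 0.00137), and Calr, the calcium-binding chaperone calreticulin, fell from a median of 411 to 263 CPM (log2 -0.66 ± 0.12, adjusted p = 0.00291). Sel1l, an adaptor of degradation at the endoplasmic reticulum, fell from a median of 78.6 to 54.8 CPM (log2 -0.50 ± 0.09, adjusted p = 0.00323). Creld2, a secreted factor of the same response, ranged over 19.0 to 133 CPM at 2 months (median 32.0) and 10.6 to 27.8 CPM at 12 months (median 16.1), a log2 fold change of -1.2 ± 0.23 (adjusted p = 0.00474). The list's median was -0.41 in the light phase and -0.75 in the dark phase. With the dark-phase libraries alone 13 members were called, and with the light-phase libraries alone 1. Of 19 cytosolic heat shock proteins 0 were called lower, against 6.85% of all genes. Only Hspb1 was higher (from a median of 13.8 to 27.9 CPM, log2 0.97 ± 0.11, adjusted p = 0.000104).

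Genes for secreted plasma proteins fell in several families. Of 29 complement genes, 7 were called lower and 1 higher (2 without the ZT1 library of either age), and the 7 fell to 3 without the ZT5, ZT9 or ZT21 library of either age and to 4 without that of ZT13. C8b, a part of the membrane attack complex, ranged over 572 to 633 CPM at 2 months (median 588) and 265 to 384 CPM at 12 months (median 293), a log2 fold change of -0.96 ± 0.09 (adjusted p = 3.37e-05). C9, which forms the pore, fell from a median of 1013 to 526 CPM (log2 -0.94 ± 0.12, adjusted p = 0.000234), and C6 fell from a median of 190.2 to 142 CPM (log2 -0.49 ± 0.09, adjusted p = 0.00295). Their groups did not overlap. C6, C8a and C8b are also among the male-biased genes called lower. Of 22 coagulation genes, 7 were lower and 0 higher, or 4 without the ZT13 library of either age, and F11, coagulation factor XI, fell from a median of 63.0 to 26.0 CPM (log2 -1.17 ± 0.09, adjusted p = 7.26e-06). Of 18 clade A serpins, 6 were lower and 1, Serpina7, was higher, with 2 higher without the ZT9 library of either age. Serpina9 fell from a median of 5.35 to 1.13 CPM (log2 -2.24 ± 0.17, adjusted p = 4.99e-06) and Serpina3n from a median of 288 to 167 CPM (log2 -0.81 ± 0.11, adjusted p = 0.000621). Serpina3n is also counted among the acute-phase genes. Acute-phase genes, which rise in the liver during inflammation, gave 4 of 26 lower (15.4%) and 3 higher (11.5%), against 6.85% and 7.67% of all genes. The 3 became 1 without the ZT1 library of either age or the 12-month ZT17 library. Saa4 fell from a median of 360.4 to 184 CPM (log2 -1.0 ± 0.15, adjusted p = 0.00106) and Hamp, the iron hormone hepcidin, rose from a median of 646 to 1059 CPM (log2 0.70 ± 0.15, adjusted p = 0.00949), while Trf, transferrin, rose from a median of 188 to 349 CPM (log2 0.76 ± 0.09, adjusted p = 0.000191). Saa2, a strong inflammation marker whose values were to be given in any case, spread from 5.82 to 545 CPM at 12 months and did not pass the test (log2 0.42 ± 0.79, adjusted p = 0.773).

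Enzymes of the urea cycle and amino acid breakdown were lower, with 14 of 39 called lower, 0 higher and a median log2 fold change of -0.24. The count was 9 without the ZT5 library of either age. Kmo, of the kynurenine pathway, ranged over 402 to 487 CPM at 2 months (median 474) and 272 to 366 CPM at 12 months (median 310.3), a log2 fold change of -0.57 ± 0.08 (adjusted p = 0.000624). Bhmt, which remethylates homocysteine, fell from a median of 5004 to 1496 CPM (log2 -1.15 ± 0.19, adjusted p = 0.00185) and Dmgdh, of choline breakdown, fell from a median of 529 to 358 CPM (log2 -0.45 ± 0.09, adjusted p = 0.00514). Retinoid genes went the other way, with 8 of 24 higher and 1 lower. Rdh16 rose from a median of 50.2 to 97.5 CPM (log2 0.94 ± 0.13, adjusted p = 0.000526) and Retsat, a retinol saturase, rose from a median of 108 to 187 CPM (log2 0.69 ± 0.11, adjusted p = 0.00124).

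Several collagen genes were lower at 12 months. Of 54 genes for collagens and matrix enzymes, 13 were called lower (24.1%) and 5 higher (9.26%), with a median log2 fold change of -0.02. Over all genes 6.85% were lower and 7.67% higher, so only the lower share stood above that of all genes. The 13 became 8 without the ZT1 library of either age, and the 5 became 1 to 3 without the libraries of any 1 other time. Col1a1, the main chain of type I collagen, ranged over 12.0 to 27.7 CPM at 2 months (median 15.1) and 3.12 to 9.47 CPM at 12 months (median 5.59), a log2 fold change of -1.47 ± 0.13 (adjusted p = 1.55e-05), and Col3a1 fell from a median of 56.9 to 27.6 CPM (log2 -1.18 ± 0.12, adjusted p = 6.99e-05), both without overlap. Col1a2 fell from a median of 21.3 to 10.5 CPM (log2 -1.07 ± 0.12, adjusted p = 0.000126) and Col4a2, of basement membranes, fell from a median of 13.4 to 7.31 CPM (log2 -0.81 ± 0.11, adjusted p = 0.000462). Other markers of stellate cells and fibroblasts, the cells that make collagen, rose, among them Dcn (from a median of 209 to 282 CPM, log2 0.52 ± 0.10, adjusted p = 0.00609) and Reln (from a median of 31.1 to 44.6 CPM, log2 0.47 ± 0.09, adjusted p = 0.00436). Over the 10 such markers 4 were higher, or 2 without the ZT1, ZT5, ZT9 or ZT21 library of either age, and 2, the collagens, lower. Their summed level was 361 to 444 CPM at 2 months and 451 to 629 CPM at 12 months. Of 29 cell cycle genes 5 were lower and 0 higher, Ccne2 (from a median of 3.56 to 1.43 CPM, log2 -1.22 ± 0.19, adjusted p = 0.00105) with the smallest p, and the count was 2 or fewer without the ZT1, ZT5, ZT17 or ZT21 library of either age. Of 19 senescence and p53 genes 4 were higher and 1 lower, or 2 higher without the ZT1 or ZT13 library of either age. Cdkn2a, which encodes the cell cycle inhibitors p16 and p19, ranged over 0.0678 to 0.482 CPM at 2 months (median 0.242) and 0.634 to 1.63 CPM at 12 months (median 1.01), a log2 fold change of 2.06 ± 0.38 (adjusted p = 0.00357), and Bax, a p53 target, rose from a median of 15.2 to 21.4 CPM (log2 0.48 ± 0.08, adjusted p = 0.00274).

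Immunoglobulin transcripts had the highest median of all lists with 3 or more tested members. Of 372 such genes listed, 193 had no count in the 12 libraries and 16 were abundant enough to be tested. Of these 16, 13 were called higher and 0 lower, with a median log2 fold change of 2.70. Members nearly absent at 2 months, such as Ighg2c below, passed the filter on abundance through their 12-month reads. The count and the median were therefore in part set by that filter. Igkc, the kappa constant region, had levels of 2.47, 4.09 and 7.56 CPM at 2 months (lowest, median and highest) and 14.9, 19.4 and 172 CPM at 12 months (log2 2.76 ± 0.38, adjusted p = 0.000532). The highest value was that of the ZT9 library, but the other 12-month libraries also lay above all those at 2 months. Ighm, the IgM heavy chain, rose from a median of 11.4 to 52.5 CPM (log2 2.65 ± 0.35, adjusted p = 0.000446) and Jchain, the joining chain of secreted antibody, rose from a median of 1.53 to 5.86 CPM (log2 2.64 ± 0.37, adjusted p = 0.000544). Ighg2c had 1 read over the 6 libraries at 2 months and 221 at 12 months, a ratio of 223 with a 95% counting interval of 39.6 to 8840.0. The 12-month ZT9 library held 126 of those reads, and without it the ratio was 113, with an interval of 19.8 to 4500.0. Of the 16 members 10 were called without the 12-month ZT9 library, and 11 to 13 without any other single library. B and plasma cell markers summed to 15.8 to 29.5 CPM at 2 months and 64.9 to 489.5 CPM at 12 months. Kupffer cell markers, of the resident macrophages, had 0 of 10 called (5 at an unadjusted p below 0.05, with 1 called lower by DESeq2 and 1 in each direction by voom), with 591 to 693 and 444 to 819 summed CPM.

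Cytosolic ribosomal protein genes were higher as a broad group of small differences. Of 87 tested, 54 were called higher and 0 lower, with a median log2 fold change of 0.40. Rps28 ranged over 16.2 to 28.8 CPM at 2 months (median 21.5) and 24.9 to 80.1 CPM at 12 months (median 38.3), a log2 fold change of 0.92 ± 0.14 (adjusted p = 0.00133), and Rpl36a rose from a median of 169 to 274 CPM (log2 0.75 ± 0.13, adjusted p = 0.00205). The list's median was 0.56 in the light phase and 0.24 in the dark phase, and of 21 members with an unadjusted p below 0.05 for the difference between phases all had a smaller age difference in the dark. With the light-phase libraries alone 38 were called higher, and with the dark-phase libraries alone 0. The count fell to 33 without the 2-month ZT1 library and to 34 without the 12-month ZT1 library. These are short transcripts with many processed copies in the genome. Over all genes, the median exon length was 2929 bases for genes called higher, 4706 for those called lower and 4208 for those not called. A library's deviations from the gene means correlated with exon length at -0.109 to 0.269 (Spearman) at 2 months and -0.17 to 0.083 at 12 months. The sign was positive at 2 months except at ZT21 and negative at 12 months except at ZT13, so length trends differed between the ages. A fit that removed trends with length and GC content in each library called 44. The part of transcript length or RNA quality in this result was not tested further.

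A cluster of zinc finger genes on chromosome 4 held several of the widest differences. Between chr4:145825237-147848366 (GRCm38), 8 genes named Zfp or Znf were tested and 6 were called higher. Among 331 such genes on all chromosomes, these included, 23 were higher and 6 lower. The stretch was chosen after the values of its leading genes were seen, so its share of calls is a description and not a test. Zfp979 at chr4:147611937-147642513 was near the limit of detection at 2 months and clear of it at 12, with 0, 0.15 and 0.479 CPM and 4.03, 6.36 and 10.6 CPM as lowest, median and highest levels (log2 5.23 ± 0.34, adjusted p = 1.36e-06). Zfp992 rose from a median of 2.04 to 27.4 CPM (log2 3.43 ± 0.24, adjusted p = 2.8e-06) and Zfp982 from a median of 2.53 to 12.1 CPM (log2 2.08 ± 0.13, adjusted p = 1.16e-06). At 6 months their log2 fold changes over the 2-month group were 4.96, 2.81 and 1.26. The neighbours Zfp984 and Zfp933, named to complete the cluster, were at medians of 3.38 and 6.67 CPM at 2 months and of 3.78 and 6.16 CPM at 12 months and did not pass the test. These genes are recent duplicates, so reads shared between them may have been dropped or misplaced.

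Several central functions had a smaller share of calls than the 14.5% over all genes tested. None of the 19 core clock genes and clock outputs was called, with a median log2 fold change of -0.04, 1 at an unadjusted p below 0.05 and 0 called by DESeq2 or voom, although many varied widely over the day. Without a filter on low counts 2 were called higher, Nr1d1 and Nr1d2, and without the 12-month ZT21 library 1 was called lower, Cry2. Dbp, for example, ranged over 0.556 to 126 CPM at 2 months (median 23.3) and 1.47 to 121 CPM at 12 months (median 16.2), a log2 fold change of 0.05 ± 0.28 (adjusted p = 0.937), and Per2 over 5.77 to 28.4 CPM at 2 months (median 14.5) and 3.78 to 31.9 CPM at 12 months (median 15.4), a log2 fold change of -0.04 ± 0.14 (adjusted p = 0.903). In the whole set Cry2 came closest (from a median of 25.4 to 20.3 CPM, log2 -0.26 ± 0.09, adjusted p = 0.0614) and was lower at all 6 times. Of the 19 genes 10 had an unadjusted p below 0.05 for an age difference that changed between phases. Over all 14001 genes 788 did, and 0 of the 19 passed adjustment. Egr1, the early response factor that the study followed, ranged over 1.47 to 27.4 CPM at 2 months (median 5.69) and 2.42 to 14.4 CPM at 12 months (median 4.38) and did not pass the test (log2 -0.18 ± 0.39, adjusted p = 0.805). Its direction turned with the libraries used, with log2 fold changes of -1.25 (adjusted p = 0.0391) from the light-phase libraries alone and 1.11 (adjusted p = 0.0291) from the dark-phase libraries alone, and of -0.53 to 0.32 with any 1 library left out. Of 79 nuclear-encoded oxidative phosphorylation genes 1 was called, Ndufa6 (log2 0.44 ± 0.10, adjusted p = 0.0125), and 2 were called without the ZT17 library of either age. Of 77 mitochondrial ribosomal protein genes 1 was higher and 1 lower, the latter only while the ZT1, ZT5, ZT13 and ZT17 libraries were all kept. A p that misses the threshold does not show that the ages had equal levels.

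**Figure D4:**
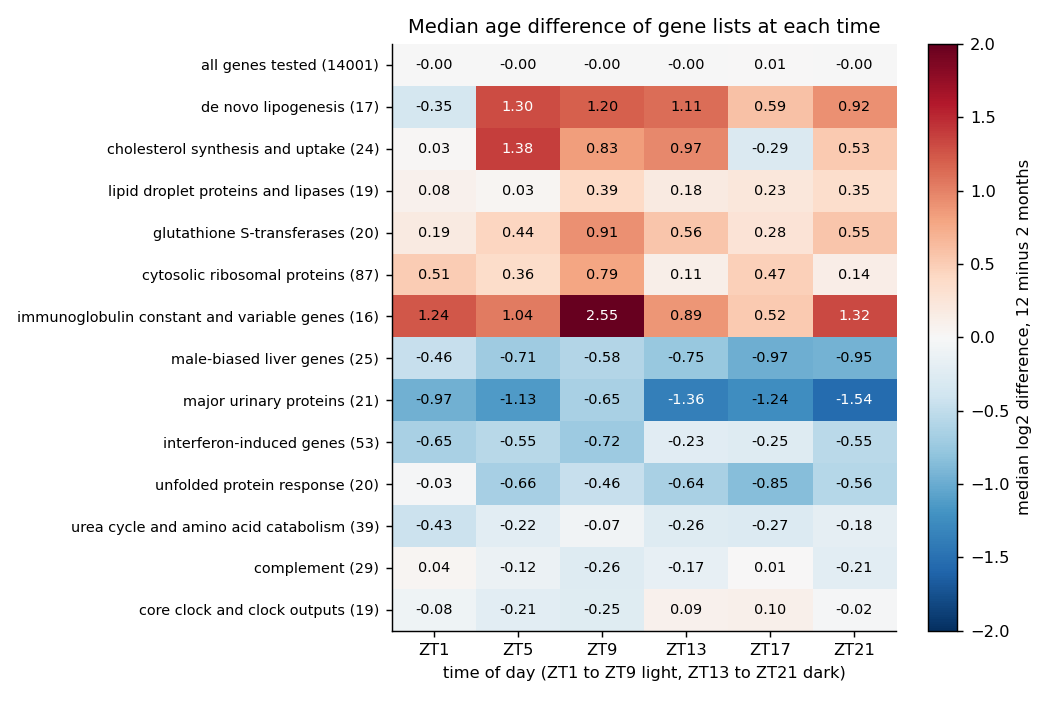
Each cell gives the median, over a list's tested members, of the log2 difference of 12 minus 2 months at 1 ZT (CPM with 0.5 added), with ZT across and lists down, red for higher and blue for lower at 12 months. The row of all genes stays near 0. Lipogenesis genes are positive except at ZT1 and cholesterol genes except at ZT17, and male-biased and MUP genes are negative at all 6 times. Unfolded protein response genes are near 0 at ZT1 (-0.03) and negative at the other times.

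The age difference itself was tested for a change between the light phase and the dark phase. Of the 14001 genes 4 passed (0.0286%), and 788 had an unadjusted p below 0.05. Mup4 was at 0.136 to 349 CPM at 2 months and 0 to 35.2 CPM at 12 months, and its fitted age difference was 10.94 higher on the log2 scale in the dark, a value that rests on libraries at 0 (adjusted p = 0.0152). Gm12411, named because it completes these 4, differed by 2.20 (adjusted p = 0.0463). The ribosomal protein genes Rpl21 and Rps27a had age differences lower in the dark by -2.04 (adjusted p = 0.00312) and -1.88 (adjusted p = 0.0463) as dark minus light. Both belong to families with many processed copies, so their counts are uncertain.

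**Figure D5:**
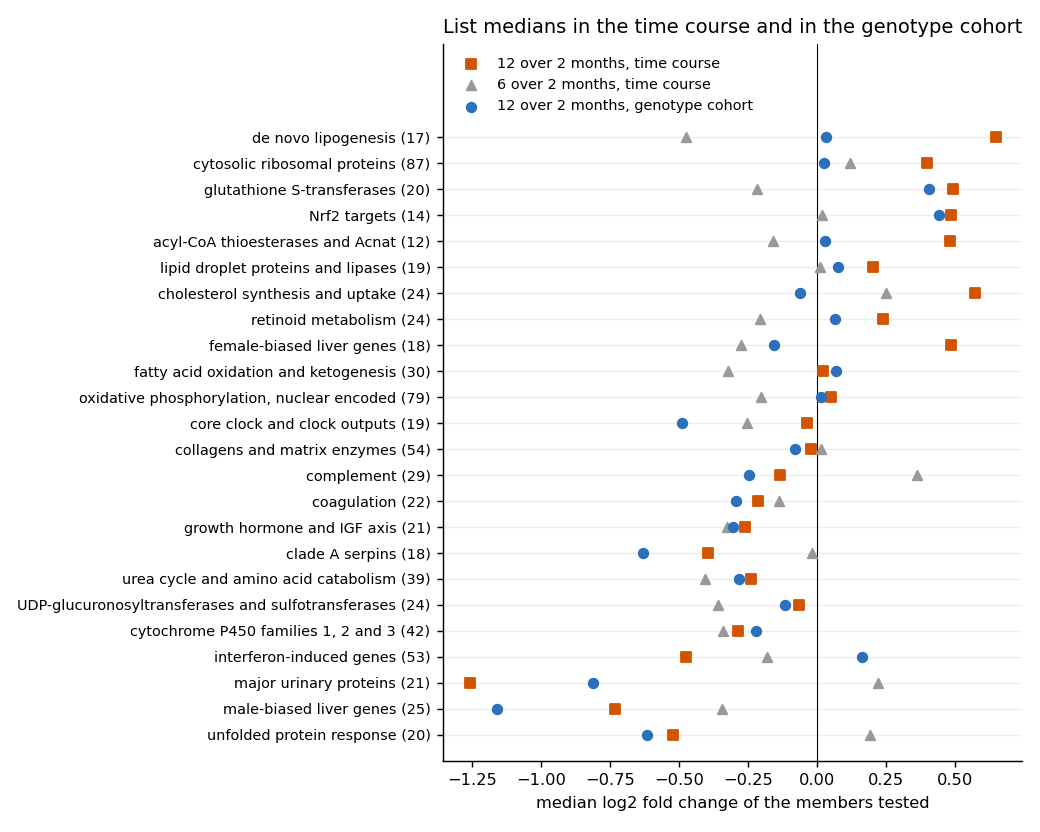
Each row is a gene list, with its median log2 fold change for 12 over 2 months in the time course (orange squares), 6 over 2 months in the time course (grey triangles) and 12 over 2 months in the genotype cohort (blue circles) on the horizontal axis. The orange and blue symbols lie on the same side for male-biased, MUP and unfolded protein response genes and on opposite sides for interferon-induced genes, and lipogenesis genes lie far to the right only in orange.

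The series holds a further set of 12-month and 2-month livers, 8 libraries of wild-type mice and of mice with Egr-1 deleted in hepatocytes by Alb-Cre, 1 library for each genotype, age and time of highest or lowest Egr-1 protein. Those times were ZT13 and ZT17 at 2 months and ZT5 and ZT21 at 12 months, so age and hour cannot be told apart there. With genotype and the high or low label as covariates, 1761 of 14516 genes were called (12.1%), and with the 4 wild-type libraries alone 84. Of the genes higher at 12 months over the day with a value in both sets, 756 of 1052 had the same sign (71.9%), and of those lower 691 of 938 (73.7%), against 59.2% of all genes. For genes higher by more than 1.2 the share was 89.1%, and for genes lower by more than 1.2 it was 73.1%. Cidec, with 3.58 ± 0.12 (SE, adjusted p = 6.32e-06), Fitm1, with 1.64 ± 0.14 (SE, adjusted p = 0.000598), and Lifr, with -1.13 ± 0.12 (SE, adjusted p = 0.00139), were called there in the same direction. Ces2b, with -4.14 ± 0.74 (SE, adjusted p = 0.0104), Selenbp2, with -4.06 ± 0.45 (SE, adjusted p = 0.00151), and Hspa5, with -1.07 ± 0.15 (SE, adjusted p = 0.00402), were also called in the same direction. Csad was not, with 0.22 ± 0.30 (SE, adjusted p = 0.708).

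By list, the male-biased median was -1.16 in that set, the MUP median -0.81, the unfolded protein response median -0.61 and the glutathione S-transferase median 0.41, each of the same sign as over the day. Interferon-induced genes had a median of 0.16 there and -0.47 over the day, cholesterol genes -0.06 and 0.57, lipogenesis genes 0.03 and 0.65, and ribosomal protein genes 0.03 and 0.40. The 6-month group of the time course, compared with the same 2-month libraries, had medians of -0.47 for lipogenesis, -0.22 for glutathione S-transferases, 0.22 for MUPs and 0.19 for the unfolded protein response. Each of these 4 medians had the opposite sign at 12 months. The 6-month medians of male-biased (-0.35), interferon-induced (-0.18), cholesterol (0.25), ribosomal protein (0.12), immunoglobulin (0.68) and urea cycle genes (-0.41) had the sign they had at 12 months. Acute-phase genes had a median of 1.74 at 6 months and -0.24 at 12 months.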

How the data were processed

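Livers were profiled by RNA-seq. Per the labels and the methods of the study, poly(A) RNA was sequenced as paired-end libraries, reads were trimmed with fastp, aligned with HISAT2 and counted with featureCounts, and the labels name the mm10 build. The labels name both a TruSeq and a NEBNext kit, and the annotation behind the counts is not given in the sources used here. The authors deposited whole-number counts per gene without normalization for 18 time course libraries and 12 genotype libraries, of which 12 and 8 were used in the tests here and the 6-month libraries for values set side by side. No column of per-sample values was left out (0). The time course table gives 54429 gene symbols, of which 53669 matched 1 gene of GENCODE M21 (GRCm38), and location, exon length and GC content came from that match.

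Counts were tested in R 4.3.3 with edgeR 4.0.16 (quasi-likelihood, TMM factors of 0.907 to 1.09, filterByExpr on the design), with ZT as a block and age as the term, and p-values were adjusted after Benjamini and Hochberg over all genes tested. Fold changes and standard errors are on the log2 scale of that fit, and CPM of single genes were computed from TMM-scaled totals. Summed CPM of marker lists used the unscaled totals. The ZT pairs the libraries across ages, since deviations from the age means correlated at 0.244 to 0.466 between libraries of the same ZT and each of the 6 2-month libraries correlated best with its own ZT. The term of age by phase was added in a second fit, and the genotype libraries were fitted with genotype, label of high or low Egr-1 and age. Depth allowed detection down to 3 counts, and intervals and floors cover counting error only. DESeq2 1.42.0 and limma 3.58.1 (voom) served as alternatives. The fits were tested on simulated data. Tables and figures were made with Python 3.11.15, pandas 2.3.3, numpy 2.4.6 and matplotlib 3.10.9.

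The text names the 12 genes of smallest p in each direction among those with adjusted p below 0.05, absolute log2 fold change over 1.2 and 1 sign at all 6 ZT, the 8 most abundant called genes in each direction, up to 4 called genes of smallest p in each of 62 lists, Cidea, Egr1, Saa2 and the clock genes, and the 3 genes of smallest phase p, of which a selection is printed. Some genes that the rule names are not reported here. Genes said to be named after their values were seen fall outside this rule. The lists and the comparison itself were chosen with earlier results of these data known. Promoter windows are from RefSeq, and motif shares use only genes with 1 window, which 8201 of the 14001 genes tested have.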

Additional observations from a re-analysis of the deposited data

Results flagged for a closer look

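Of 286 groups of 6 values examined, 30 (10.5%) had a highest or lowest library separated from the rest by more than Dixon's 95% limit, where chance gives about 1 in 20, and 10 of the 30 came from the 12-month ZT9 library. That library stood above the rest of its age in Mgst3 (50.79 CPM), Zfp992 (45.83 CPM), Slc22a29 (3.332 CPM) and Ghr (643.6 CPM), in the antibody genes Ighg2c (10.24 CPM), Ighm (282.6 CPM), Igkc (171.7 CPM) and Jchain (67.45 CPM), and in the summed levels of B and plasma cell markers (489.5 CPM) and erythroid markers (4492 CPM). The part of blood or lymphoid cells in these values was not tested beyond those sums.

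Other 12-month libraries set apart were those of ZT21 for Cidea (4.54 CPM), Sult5a1 (3.901 CPM), Egr1 (14.4 CPM) and, on the low side, Cyp1a2 (306.2 CPM), ZT5 for Saa2 (544.8 CPM), ZT1 for Isg15 (16.19 CPM) and ZT17 for the summed stellate cell and fibroblast markers (628.8 CPM). At 2 months the ZT17 library was highest for Creld2 (132.9 CPM), Manf (241.3 CPM) and Saa4 (662.8 CPM), the ZT21 library for Serpina3k (28330.0 CPM) and Mup7 (24670.0 CPM), the ZT1 library for Col3a1 (95.9 CPM) and Egr1 (27.38 CPM), and the ZT5 library for Mup11 (1546 CPM), the clock gene Nr1d1 (78.09 CPM) and the summed adipocyte markers (2.333 CPM). The 2-month ZT9 library was highest for Jchain (2.26 CPM) and Ighg2c (0.06848 CPM, 1 read, the others being 0) and lowest for Slc22a7 (39.51 CPM). With 1 library per time, a time of day and a single library cannot be told apart in these values.

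The age difference changed between phases, by the test of that change, for Mup4 (10.94 as dark minus light on the log2 scale), Gm12411 (2.204), Rps27a (-1.88) and Rpl21 (-2.039).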

How the results depend on the processing

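With no replicate block, 898 of 13039 genes were called (511 higher and 387 lower), and 189 with a log2 fold change over 1.2 (118 and 71). That fit also tested fewer genes, and the fit with the ZT block kept on the same 13039, chosen after seeing the data, called 1960 and 223 over 1.2. The light-phase libraries alone gave 636 (377 higher, 259 lower) and 201 over 1.2, of which 71 lower, and the dark-phase libraries alone gave 634 (342 higher, 292 lower) and 127 higher over 1.2, each with 3 libraries per age. Library totals without factors lowered the genes called lower to 576. A filter at a mean of 1 CPM left 197 over 1.2, with 114 higher. Leaving out 1 library at a time gave 1385 to 1685 calls (734 to 903 higher, 646 to 817 lower) and 274 to 323 over 1.2 (163 to 213 and 99 to 127). Genes whose age difference depended on phase numbered 134 without a filter, 2 with the filter at 1 CPM and 14 with DESeq2. The genotype libraries gave 84 calls with the wild-type libraries alone. RLE factors, upper quartile factors, voom, DESeq2 and the 18-library fit kept the main counts within 1.5 times. The log2 fold change of Rpl21 was 0.90 with the light-phase libraries alone (adjusted p = 0.00501) and that of Egr1 was 1.11 with the dark-phase libraries alone (adjusted p = 0.0291), both opposite in sign to the whole day. The cause of these shifts was not tested, beyond fewer libraries or genes entering the fit. With 1 library per age and time and 13582327 to 16557378 reads, genes under about 1 CPM rest on few counts.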
